A study of Mus musculus with 6 samples.

Results

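The 9 genes described here encode the subunits of the transcription factor NF-kappaB and the proteins that restrain it: Nfkb1, Rela, Rel, Nfkbia, Nfkbie, Tnfaip3, Nfkb2, Relb and Bcl3. They were picked by symbol from the 32286 features of each library, and they were proposed with genotype differences of these same endothelial cells in view. Genotype values in endothelial cells are therefore given as a description. Brain microvessels were pulled down on anti-PECAM1 beads (PECAM1 is an endothelial adhesion protein) and dissociated for droplet single-cell RNA-seq with the 10x Genomics 3′ chemistry v3.1. The 3 Cldn5 iECKO libraries came from C57Bl6 mice with Cdh5-creERT2, Cldn5 fl/fl and R26 YFP/YFP, and the 3 control libraries from C57Bl6 mice with Cldn5 fl/fl and R26 YFP/YFP but without Cre. Mice of both groups received tamoxifen by gavage (100 µl at 20 mg/ml on each of 3 days) at about 3 months of age. Cdh5 is the gene of an endothelial cadherin, so recombination was directed to endothelial cells, and Cldn5 encodes claudin-5, a strand protein of blood-brain barrier tight junctions. The labels do not say whether libraries came from 1 mouse or several, so every p-value measures only the spread between libraries.

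NF-kappaB factors are dimers held in the cytoplasm by inhibitors of the IkappaB family until a signal has the inhibitor degraded. In the canonical arm, cytokine and Toll-like receptors free dimers built on RELA, REL and the p50 product of Nfkb1. In the non-canonical arm, receptors such as the lymphotoxin beta receptor and CD40 stabilise the kinase NIK, which leads to processing of the Nfkb2 product p100 into p52, the partner of RELB. Nfkbia, Nfkbie, Tnfaip3, Nfkb2, Relb and Bcl3 are themselves known targets of the factor. In vessel walls the pathway is known for controlling leukocyte adhesion molecules and chemokines.

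The promoters of these genes hold the sequences through which that feedback is known to run, so those with a match to the kappaB consensus are shown. A window of the 250 bases before each RefSeq start site (GRCm38.p6) was searched on both strands, and overlapping matches were counted separately. Windows were at hand for 7 of the 9 genes, and Nfkb1 and Relb are named only. Of these 7 genes, 5 held a match (71.4%), whereas 2225 of 27025 genes did (8.23%). Among single windows, 2382 of 32851 held one (7.25%). The matches within the stretches below are in capitals, and positions count from the start site. The Rel sequence lies at chr11:23771036-23771115 on the minus strand, with overlapping matches at -92 and -91. That of Nfkbia lies at chr12:55492652-55492731 on the minus strand, with a match at -29. That of Nfkbie lies at chr17:45555539-45555618 on the plus strand, with a match at -106. That of Tnfaip3 lies at chr10:19015411-19015490 on the minus strand, with a match at -12, and another match of its window lies farther from the start site, outside that stretch. Each of 3 Nfkb2 start sites held a match, at chr19:46304657-46304736, chr19:46305445-46305483 and chr19:46305680-46305729 on the plus strand. The first Nfkb2 sequence has overlapping matches at -39 and -38 and a further match at -11. The windows of Rela and Bcl3 held no match, which says only that these letters are not in these windows.
Rel: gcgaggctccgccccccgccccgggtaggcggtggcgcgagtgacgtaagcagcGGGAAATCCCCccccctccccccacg
Nfkbia: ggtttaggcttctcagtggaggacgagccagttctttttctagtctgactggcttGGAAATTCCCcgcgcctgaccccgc
Nfkbie: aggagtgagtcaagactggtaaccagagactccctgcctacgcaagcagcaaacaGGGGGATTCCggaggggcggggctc
Tnfaip3: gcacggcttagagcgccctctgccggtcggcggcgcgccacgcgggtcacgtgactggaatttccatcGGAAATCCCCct
Nfkb2, start site 1: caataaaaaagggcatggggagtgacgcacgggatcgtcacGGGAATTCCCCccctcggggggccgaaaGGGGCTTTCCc
Nfkb2, start site 2: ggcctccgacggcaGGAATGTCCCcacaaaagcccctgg
Nfkb2, start site 3: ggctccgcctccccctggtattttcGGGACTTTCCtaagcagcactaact

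Each iECKO library gave 15727366 to 49350802 UMIs over 2714 to 7420 barcodes, and each control library 29721428 to 31638780 UMIs over 4049 to 6684 barcodes. After filtering, 1892 to 4664 endothelial cells per iECKO library and 3116 to 4828 per control library were kept. Every endothelial library sum detected all 12 endothelial markers. Markers of other cells were also present in these sums. The 5 erythrocyte markers summed to 337 to 1234 CPM (counts scaled to a common library size, with TMM factors) in iECKO libraries and 404 to 698 CPM in control libraries, and the 7 B cell markers to 346 to 390 CPM and 384 to 412 CPM. Summed pericyte markers reached 61.8 to 105 CPM in iECKO and 35.6 to 66.5 CPM in control libraries, and summed microglia markers 36.6 to 62.7 and 36.6 to 51.7 CPM. Neutrophil markers summed to at most 1.11 CPM. The part of these marker levels in the results was not tested. Any pair of libraries shared at most 16 cell barcodes. Cldn5 checked the labels: it had 2827, 2322 and 2806 CPM in the endothelial cells of iECKO libraries 1 to 3, against 4749, 4298 and 4783 CPM in those of the controls. The groups did not overlap. The YFP reporter feature had no UMI in any library and marked no cells.

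In endothelial cells, the genes of the non-canonical arm were higher in iECKO than in control libraries, in every library. Nfkb2, the gene of p100 and p52, had 55.9, 48.3 and 31.1 CPM in iECKO libraries 1 to 3, against 19.1, 23.8 and 17.95 CPM in control libraries 1 to 3. The groups did not overlap, and the iECKO libraries also spread more widely. The log2 difference of Nfkb2 was 1.15 ± 0.21 (SE). Relb, the gene of its partner subunit, had 57.1, 44.0 and 44.0 CPM in iECKO libraries, against 23.9, 25.5 and 27.3 CPM in control libraries. Here too every iECKO value lay above every control value, with a log2 difference of 0.92 ± 0.14 (SE).

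The DNA-binding subunits of the canonical arm differed less. Nfkb1, the gene of p105 and p50, had 91.1, 102 and 91.1 CPM in iECKO libraries, against 81.3, 89.5 and 87.4 CPM in controls. The groups did not overlap, but the log2 difference was only 0.14 ± 0.12 (SE). Rela, the gene of the main activating subunit p65, had 119, 81.0 and 73.2 CPM in iECKO libraries, against 76.8, 57.4 and 62.7 CPM in controls. Its groups overlapped, since iECKO library 3 lay below control library 1, and the log2 difference was 0.47 ± 0.20 (SE). Rel, the gene of c-Rel, had 29.2, 33.9 and 19.6 CPM in iECKO libraries and 13.8, 16.6 and 21.2 CPM in controls. Control library 3 lay above iECKO library 3, and the log2 difference was 0.67 ± 0.23 (SE).

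Among the inhibitors, Tnfaip3 stood apart from Nfkbia. Tnfaip3, the gene of the ubiquitin-editing enzyme A20, had 63.6, 40.5 and 23.9 CPM in iECKO libraries, against 10.8, 19.9 and 16.9 CPM in controls. Its groups did not overlap, and its log2 difference was 1.43 ± 0.37 (SE), although iECKO libraries 1 and 3 were far apart. Nfkbia, the gene of IkappaB alpha, had 978, 764 and 991 CPM in iECKO libraries, against 947, 896 and 885 CPM in controls. Its groups overlapped, with the lowest value in an iECKO library, and the log2 difference was 0.00 ± 0.18 (SE). Nfkbie, the gene of IkappaB epsilon, had 4.21, 5.82 and 4.82 CPM in iECKO libraries, against 2.12, 4.10 and 3.40 CPM in controls. These few counts did not overlap between groups, with a log2 difference of 0.61 ± 0.28 (SE). Bcl3, a nuclear IkappaB protein that binds p50 and p52 dimers, had 28.5, 19.2 and 10.4 CPM in iECKO libraries and 14.9, 12.004 and 12.5 CPM in controls. iECKO library 3 was the lowest of all 6, and the log2 difference was 0.56 ± 0.31 (SE).

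**Figure D1:**
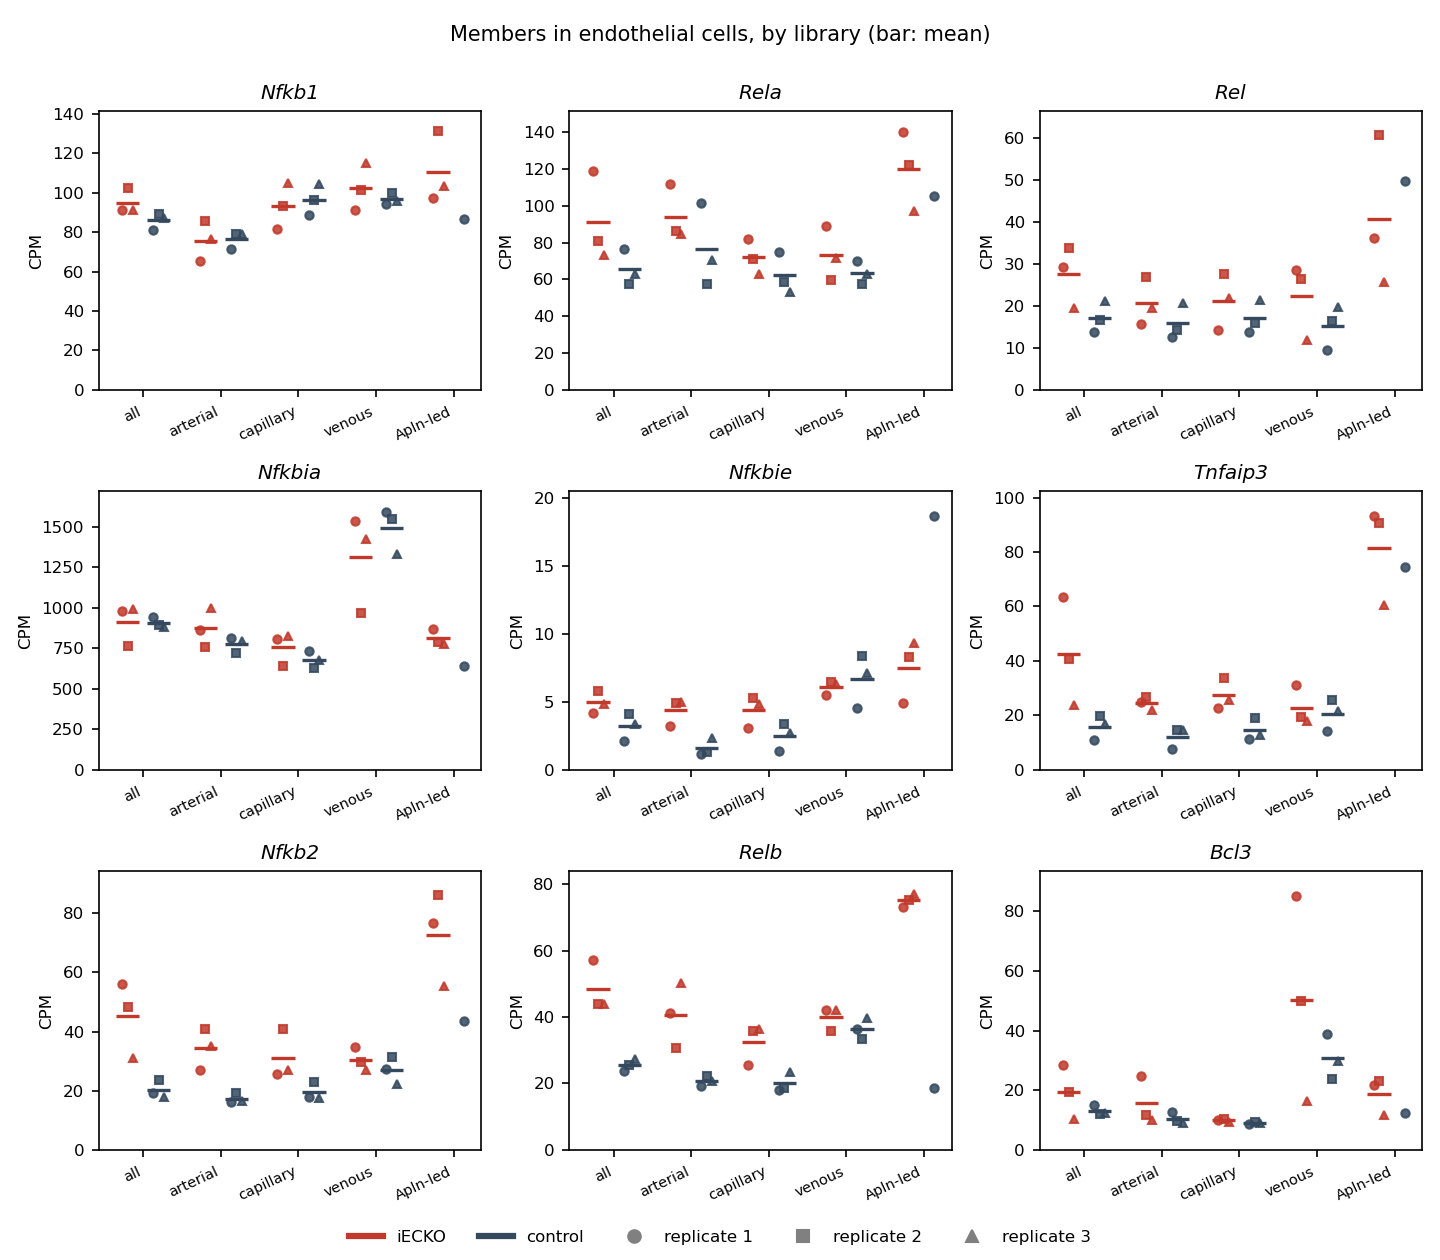
Level of each of the 9 genes (CPM with TMM factors) in all endothelial cells and in arterial, capillary, venous and Apln-led cells. Points are libraries with at least 20 such cells, marked by replicate number, and bars are group means. In each set of cells, iECKO libraries are on the left and control libraries on the right. In all endothelial cells, Nfkb2, Relb and Tnfaip3 do not overlap between the groups, and Nfkbia does.

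Over the 9 genes, 5 had every iECKO library above every control library (Nfkb1, Nfkbie, Tnfaip3, Nfkb2 and Relb). The same held for 6.88% of the 13256 genes tested, and none of the 9 had every iECKO library below every control, as 4.61% of all genes had. By edgeR's quasi-likelihood test without pairing, 0 of the 9 passed an adjusted p of 0.05, beside 0.0151% of all genes. An unadjusted p under 0.05 was reached by 5 of the 9, beside 966 of all 13256 genes tested. With the replicate number as a block, Nfkb2 and Relb passed, beside 1.45% of all genes. By DESeq2, Nfkb2, Relb and Tnfaip3 passed, beside 1.16%. Without iECKO library 3, the test without pairing called the same 3 genes. The contrast had been used to choose these genes, so nothing is read from these counts.

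One subcluster of endothelial cells, led by Apln, Adm, Kit and Angpt2, was unevenly spread over the libraries. It held 2645, 378 and 164 of the 4664, 1892 and 3010 endothelial cells of iECKO libraries 1 to 3, against 27, 19 and 16 of the 4442, 4828 and 3116 of control libraries 1 to 3. Nfkb2 was at 76.6, 86.2 and 55.4 CPM in these cells of the iECKO libraries, and Relb at 73.1, 75.3 and 76.9 CPM. Both lay above the arterial, capillary and venous cells of the same library in all 3 iECKO libraries. Tnfaip3 was at 93.2, 90.8 and 60.6 CPM there, also above the 3 zones in each iECKO library. Only control library 1 held at least 20 such cells, where Nfkb2 had 43.5, Relb 18.6 and Tnfaip3 74.5 CPM. The groups therefore could not be compared within this subcluster.

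When the Apln-led cells were left out of the endothelial sums, a choice made after seeing the data, the log2 differences were smaller. Nfkb2 then differed by 0.63 ± 0.16 (SE), Relb by 0.53 ± 0.13 and Tnfaip3 by 0.58 ± 0.22. Without pairing 0 of the 9 genes passed, beside 0% of all genes, and with the replicate block only Nfkb2 passed, beside 0.221%. Another cluster, led by Prss34, held 315 of its 325 cells in iECKO library 1 and was kept out of the endothelial cells. With it included, Nfkb2 differed by 1.15 ± 0.21 (SE) and Relb by 0.90 ± 0.14, and 0 of the 9 genes passed (0.00753% of all genes), or 2 with the block (0.997%).

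The endothelial cells were divided into zones by markers: arterial cells (218 to 877 per iECKO library and 533 to 868 per control library), capillary cells (716 to 1050 and 1171 to 2390) and venous cells (168 to 239 and 172 to 308). In capillary cells, Nfkb2 had 25.5, 40.8 and 27.0 CPM in iECKO libraries, against 17.8, 23.1 and 17.5 CPM in controls. Relb had 25.5, 35.8 and 36.4 CPM in the capillary cells of iECKO libraries, against 17.9, 18.7 and 23.4 CPM in those of controls. Tnfaip3 had 22.7, 33.9 and 25.6 CPM there in iECKO libraries, against 11.4, 19.2 and 12.7 CPM in controls. The groups did not overlap for any of these 3 genes, nor for Bcl3, whose log2 difference was 0.15 ± 0.19 (SE). Those 4 genes had every iECKO library above every control, as had 4.98% of the genes tested in capillary cells.

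Arterial cells gave the same 3 genes and Nfkbie. Nfkb2 had 26.9, 40.9 and 35.01 CPM in the arterial cells of iECKO libraries, against 16.1, 19.3 and 16.4 CPM in those of controls. Relb had 41.3, 30.5 and 50.2 CPM there in iECKO libraries, against 19.3, 22.2 and 20.7 CPM in controls. Tnfaip3 had 24.9, 26.9 and 22.2 CPM there in iECKO libraries, against 7.48, 14.5 and 14.7 CPM in controls. No group overlapped for these genes, and their log2 differences were 0.99 ± 0.20, 1.01 ± 0.20 and 0.97 ± 0.25 (SE). The 4 genes with every iECKO library above every control stood beside 3.45% of the genes tested in arterial cells.

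In venous cells none of the 9 genes separated the groups, where 5.46% of the genes tested had every iECKO library above every control and 4.79% below. No gene of the 9 lay below in capillary or arterial cells either (5.15% and 3.54% of the genes tested). Nfkb2 had 34.6, 29.7 and 27.0 CPM in the venous cells of iECKO libraries and 27.2, 31.5 and 22.3 CPM in those of controls. Relb had 42.2, 35.7 and 42.2 CPM there in iECKO libraries and 36.2, 33.3 and 39.6 CPM in controls. Tnfaip3 had 31.0, 19.5 and 17.8 CPM there in iECKO libraries and 14.4, 25.8 and 21.6 CPM in controls. All 3 overlapped between the groups. Bcl3 spread most, with 85.2, 49.7 and 16.3 CPM in venous cells of iECKO libraries and 38.7, 23.7 and 29.7 CPM in those of controls. Venous cells of iECKO library 2 had a median of 4725 UMIs, whereas the other libraries had 9697 to 13253, and its Nfkbia level of 970.0 CPM was the lowest of the 6.

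Endothelial subclusters outside the zones did not all share one direction. The one called Ndnf-led here had the haemoglobin genes Hbb-bs, Hba-a1, Hbb-bt and Hba-a2 ahead of Ndnf among its leading genes. It also had 5 venous and 3 capillary markers raised over the other endothelial cells. The part of haemoglobin RNA in its values was not tested. In these Ndnf-led cells, Nfkb2 had 30.6, 38.7 and 28.05 CPM in iECKO libraries, against 23.3, 25.2 and 17.1 CPM in controls. Bcl3 had 8.76, 6.83 and 9.13 CPM there in iECKO libraries, against 11.4, 11.5 and 9.20 CPM in controls. In cells led by Hspa1a, Relb had 43.7, 41.8 and 43.0 CPM in iECKO libraries, against 28.8, 30.7 and 29.3 CPM in controls. In cells led by Plvap, a gene of fenestrated endothelium, Nfkb2 had 23.8, 12.98 and 23.88 CPM in iECKO libraries, against 23.95, 27.2 and 26.3 CPM in controls, so the groups nearly touched. Thus Nfkb2 lay above in Ndnf-led and below in Plvap-led cells, Bcl3 below in Ndnf-led and Relb above in Hspa1a-led cells. No further separation of the groups was seen for the 9 genes in these 3 subclusters. Of the genes tested in all endothelial cells, every iECKO library lay above every control for 4.44% in Ndnf-led, 3.24% in Hspa1a-led and 3.24% in Plvap-led cells, and below for 4.16%, 4.83% and 4.34%.

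**Figure D2:**
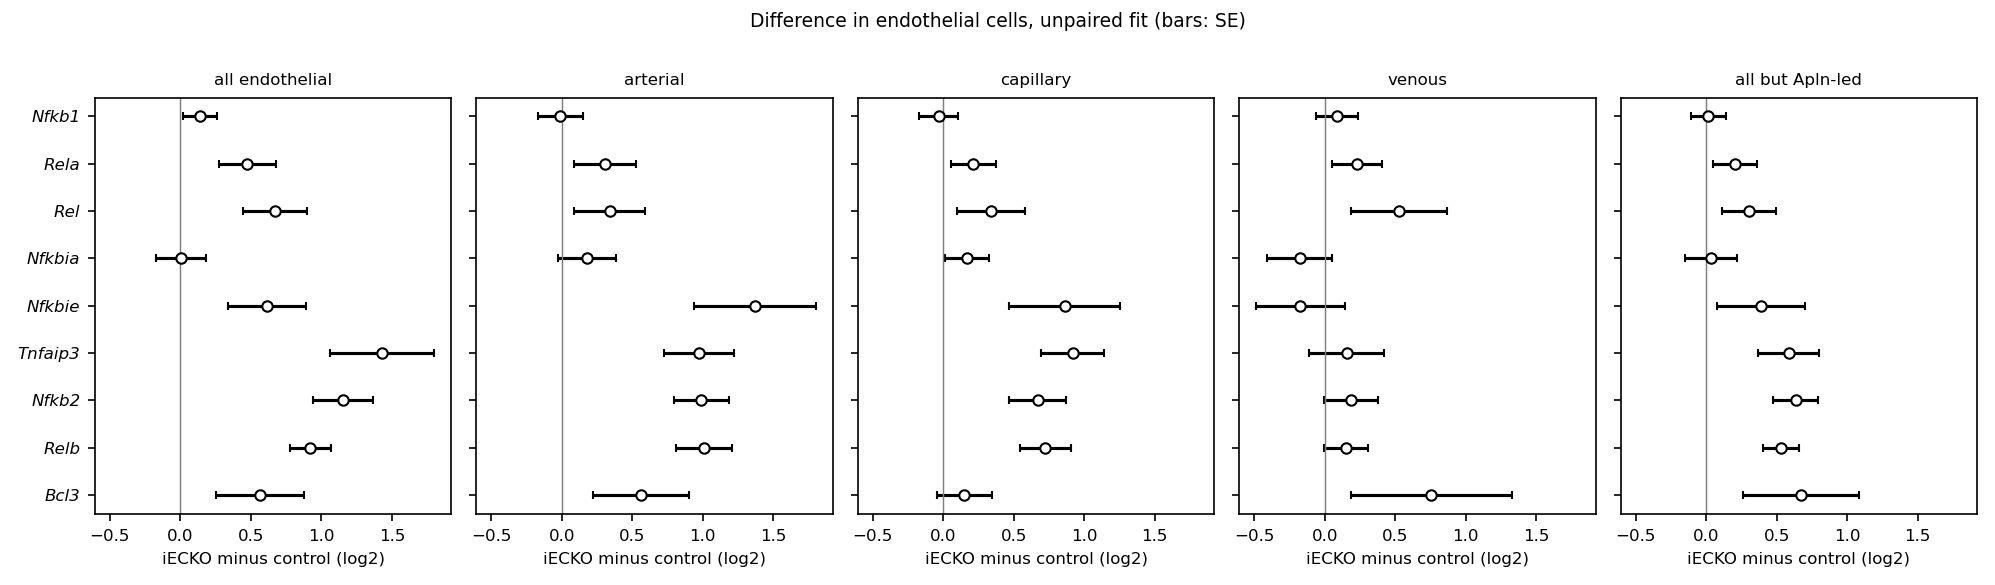
Difference iECKO minus control (log2) for each gene in all endothelial cells and in each zone, from edgeR without pairing; bars are standard errors. Nfkb2, Relb and Tnfaip3 lie between 0.67 and 1.01 in arterial and capillary cells and between 0.15 and 0.19 in venous cells.

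Without pairing, 0 of the 9 genes passed edgeR's test in arterial cells (0% of all genes), in capillary cells (0.0645%) and in venous cells (0.00956%), and DESeq2 called 0 in each zone (0.101%, 0.276% and 0.15% of all genes). Unadjusted p-values under 0.05 by edgeR were reached by 4, 4 and 0 of the 9. Over all genes tested they were reached by 290 of 10783, 502 of 10845 and 505 of 10465. With the replicate block, Nfkb2 and Relb passed in arterial cells (0.549% of all genes), and Nfkb2, Relb and Tnfaip3 in capillary cells (2.26%). In venous cells 0 passed with the block (0.317%). When the Apln-led cells were counted as capillary, which was tried after seeing the data, Relb, Tnfaip3 and Nfkb2 passed without pairing (1.12%), at log2 differences of 1.47 ± 0.19, 1.98 ± 0.34 and 1.47 ± 0.27 (SE). With the block as well, Rela, Nfkbie and Bcl3 joined them (15.1%).

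Whether the genotype difference itself differed between zones was tested by an interaction, with the library as a block. For venous against capillary cells, 0 of the 9 genes passed (0.00852% of all genes). By edgeR 4 of the 9 had an unadjusted p under 0.05, beside 942 of all 11733 genes tested. Relb gave a log2 interaction of -0.56 ± 0.20 (SE; adjusted p = 0.54 by edgeR) and Tnfaip3 -0.72 ± 0.26 (adjusted p = 0.54). Nfkbia gave -0.37 ± 0.12 (adjusted p = 0.54), Nfkbie -0.93 ± 0.41 (adjusted p = 0.59) and Nfkb2 -0.43 ± 0.21 (adjusted p = 0.62). DESeq2 tested 1 of the 9 and called 0 (1.43% of all genes). For arterial against capillary cells 0 passed (0% of all genes), with Relb at 0.33 ± 0.20 and Nfkb2 at 0.35 ± 0.21. By edgeR 0 of the 9 had an unadjusted p under 0.05, beside 275 of all 11733 genes tested, and DESeq2 called 0 (0%). A difference between zones in the response to Cldn5 deletion was thus not shown for any of the 9 genes.

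The control libraries alone were used to compare these genes along the vessel. The genes were chosen with earlier results of these data known, and whether zone results were among them is not recorded. The 9 genes and Cldn5 were left out of the genes that defined the clusters, but genes that vary with them were not. In venous cells, 6 of the 9 genes were higher than in capillary cells by edgeR with the library as a block, where 27.3% of all genes were higher. DESeq2 called 5 of the 6, all but Tnfaip3, beside 32.5% of all genes called. All 3 inhibitors of the canonical arm were among them. Nfkbia had 1590.4, 1547 and 1335 CPM in the venous cells of control libraries 1 to 3, against 731, 626 and 680 CPM in capillary cells. The zones did not overlap, and the log2 difference was 1.20 ± 0.07 (SE; adjusted p = 1.3e-11). Nfkbie differed by 1.49 ± 0.31 (adjusted p = 0.00038) from few counts, at 4.53 to 8.33 CPM in venous cells and 1.35 to 3.37 CPM in capillary cells. Tnfaip3 had 14.4, 25.8 and 21.6 CPM in venous cells and 11.4, 19.2 and 12.7 CPM in capillary cells. It was higher in venous cells within each library, by 0.56 ± 0.16 (adjusted p = 0.006), but not without control library 3 (0.44, adjusted p = 0.0659) or over all 6 libraries (0.20, adjusted p = 0.31).

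Both non-canonical genes and Bcl3 followed the same order. Relb had 36.2, 33.3 and 39.6 CPM in venous cells of the control libraries, against 17.9, 18.7 and 23.4 CPM in capillary cells, a log2 difference of 0.93 ± 0.12 (SE; edgeR, adjusted p = 2.4e-06). Nfkb2 was higher in venous cells in 3 of 3 libraries, by 0.54 ± 0.13 (adjusted p = 0.0016). Bcl3 had 38.7, 23.7 and 29.7 CPM in venous cells, against 8.61, 9.17 and 8.83 CPM in capillary cells, the largest difference of the 9 at 1.84 ± 0.16 (adjusted p = 7.6e-09). The DNA-binding subunits of the canonical arm did not pass, with Nfkb1 at 0.07 ± 0.08, Rela at 0.11 ± 0.11 and Rel at -0.08 ± 0.16. Venous cells of the controls had medians of 10268 to 12089 UMIs and capillary cells 2850 to 3342. The part of this depth gap in the zone differences was not tested.

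**Figure D3:**
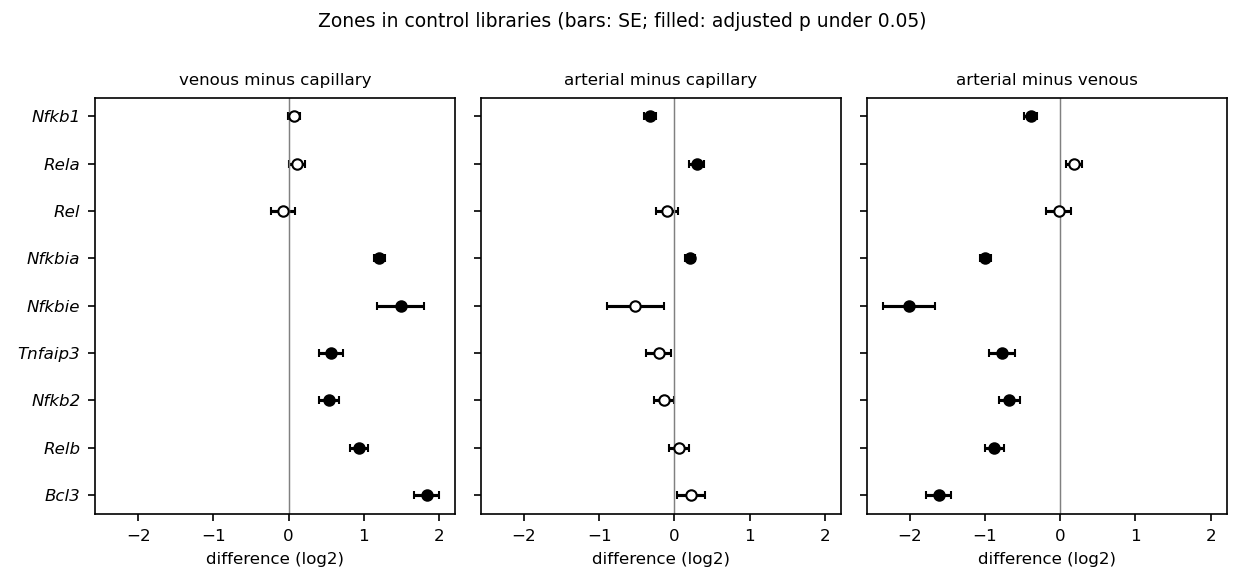
Log2 differences between zones in the 3 control libraries (edgeR with the library as a block; bars are standard errors; filled points have an adjusted p under 0.05). Venous cells are higher than capillary cells for 6 genes, and not for Nfkb1, Rela and Rel.

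Against capillary cells, arterial cells showed differences of at most 0.32 on the log2 scale among the genes that passed. Nfkb1 was lower in arterial cells by a log2 difference of -0.32 ± 0.08 (SE; edgeR, adjusted p = 0.0027), while Rela was higher by 0.30 ± 0.10 (adjusted p = 0.021) and Nfkbia by 0.21 ± 0.07 (adjusted p = 0.022). These 3 of 9 genes stood beside 43.9% of all genes called, and DESeq2 called only Nfkb1, beside 23.2%. The calls of Rela and Nfkbia were lost without control library 1 or control library 3, and that of Nfkbia also without control library 2. Against venous cells, 7 of the 9 genes were lower in arterial cells, beside 17.1% of all genes lower, from Nfkb1 at -0.39 ± 0.08 to Nfkbie at -2.01 ± 0.35, and DESeq2 called the same 7, beside 19.4%. Over all 6 libraries the calls of Nfkb2 (-0.27, adjusted p = 0.115 by edgeR) and Tnfaip3 (-0.36, adjusted p = 0.0996) were lost. In iECKO libraries, venous cells were the highest of the 3 zones in 3 of 3 libraries for Nfkbia, Nfkbie and Bcl3, but in 1 of 3 for Nfkb2, Relb and Tnfaip3. In controls they were the highest in 3 of 3 for all 6 genes. Those 6 genes were picked by their venous calls in the same controls, so the control order adds no separate result. A contrast of these orders between the genotypes cannot be read as a change of zonation. How many of all genes had these orders was not examined.

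Receptors that feed the canonical arm were higher in the venous cells of controls. The counts below stand beside 27.3% of all genes higher and 24.1% lower in venous than in capillary cells. The listed receptors, adaptors, kinases, other inhibitors and ligands were not left out of the clustering. They could therefore help define the zones, so their differences are a description. Of the 10 receptors listed, 7 could be tested and 5 were higher, among them the interleukin-1 receptor Il1r1 (3.63 ± 0.09 on the log2 scale, SE), the lipopolysaccharide receptor Tlr4 (1.76 ± 0.49), the TNF receptor Tnfrsf1a (1.49 ± 0.10) and Tlr2 (1.30 ± 0.32). The list's median difference was 1.30, and that of all genes 0.01. Receptors of the non-canonical arm did not share this pattern: of 4 tested, Tnfrsf11a, the gene of RANK, was higher (0.67 ± 0.14), while Cd40 (-0.80 ± 0.19) and Tnfrsf12a (-0.45 ± 0.12) were lower. Of 18 adaptors and kinases, 4 were higher and 4 lower, near the shares over all genes. Map3k14, the gene of NIK, was higher by 1.99 ± 0.30, and Myd88, the adaptor of Toll-like and interleukin-1 receptors, by 0.87 ± 0.16. Chuk, the gene of the kinase IKK alpha, was lower at -0.83 ± 0.11.

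Of 9 other inhibitors tested, 5 were higher in venous cells and none lower, with Nfkbiz, the gene of IkappaB zeta, at 3.30 ± 0.39 (log2 difference, SE) and Nfkbid at 1.86 ± 0.38. Of 17 tested target genes, 15 were higher in venous than in capillary cells and 1 lower, with a median difference of 3.77. The chemokine genes Ccl21a (8.10 ± 0.81) and Cxcl10 (6.51 ± 0.29) differed most, followed by Lcn2, which encodes the iron-siderophore carrier lipocalin-2, at 6.07 ± 0.16. These target genes took part in the clustering, and Lcn2 is among the leading genes of the venous cluster, so its difference describes the cluster. The ligand gene Tnfsf12, which encodes TWEAK, was the one ligand tested and was higher at 0.87 ± 0.08.

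Other cell classes of the preparation were set against endothelial cells within the control libraries. They were named pericyte-like, smooth muscle-like and microglia-like from their markers. The log2 differences below are to be read against the median over all genes, which was -0.24 for pericyte-like, -0.16 for smooth muscle-like and -0.18 for microglia-like cells. In the microglia-like cells of controls, Rel had 126, 231 and 165 CPM, against 13.8, 16.6 and 21.2 CPM in endothelial cells. The classes were far apart, with a log2 difference of 3.19 ± 0.17 (SE; edgeR, adjusted p = 1e-77). Tnfaip3 had 47.9, 132 and 59.5 CPM in microglia-like cells of controls, against 10.8, 19.9 and 16.9 CPM in endothelial cells (2.14 ± 0.21, adjusted p = 1.1e-22). Nfkbie had 26.8, 64.3 and 20.4 CPM there, against 2.12, 4.10 and 3.40 CPM in endothelial cells (3.33 ± 0.38, adjusted p = 8.5e-18).

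Nfkb1 also passed as higher in microglia-like cells (0.46 ± 0.16, adjusted p = 0.011 by edgeR), and Rela (-0.58 ± 0.20, adjusted p = 0.011), Nfkbia (-0.45 ± 0.18, adjusted p = 0.03) and Bcl3 (-3.36 ± 0.72, adjusted p = 1.1e-05) as lower. Thus 4 of 9 genes were higher, beside 22.2% of all genes, and 3 lower, beside 29.9%. DESeq2 called 4, Rel, Nfkbie, Tnfaip3 and Bcl3, beside 39.3%. Nfkb2 and Relb did not pass, at 0.27 ± 0.28 and 0.49 ± 0.24. Control library 2 stood apart in microglia-like cells, with Nfkbia at 1324 CPM there, against 506 and 549 CPM in control libraries 1 and 3. Without control library 2 the same number of genes passed, 7. Without control library 1 the calls of Nfkb1, Rela and Nfkbia were lost, and without control library 3 those of Nfkb1 and Nfkbia. Of 6 ligand genes tested, 5 were higher and 1 lower in microglia-like than in endothelial cells, with Il1a at 9.91 ± 0.27, Tnf at 7.88 ± 0.39 and Il1b at 7.77 ± 0.95.

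Nfkbia was low in mural cells. It had 126, 172 and 127 CPM in pericyte-like cells of controls and 107, 134 and 78.2 CPM in smooth muscle-like cells, against 947, 896 and 885 CPM in endothelial cells. The classes did not overlap, and the log2 differences were -2.87 ± 0.20 (SE; edgeR, adjusted p = 4e-46) and -2.96 ± 0.13 (adjusted p = 9e-110). Cldn5, which mural cells should lack, was at 42.2 to 146 CPM in pericyte-like cells of the controls, so endothelial RNA was present in these droplets, and its part in the values was not tested. Cells with UMIs for many markers of another class had been removed beforehand, which took 25.7 to 58.1% of the pericyte-like cells per control library. In pericyte-like cells 3 of the 9 genes were lower, beside 16% of all genes (DESeq2 called 1, Nfkbia, beside 19.6%): Nfkbia, Nfkb1 (-0.85 ± 0.32, adjusted p = 0.034) and Bcl3. Bcl3 had no UMI among 408974 in pericyte-like cells of the 3 controls together, which allows 7.33 CPM over the group (3 counts), so that it was at least 1.79-fold lower than the 13.1 CPM of endothelial cells. Nfkbie had no UMI there either, but its 3.20 CPM in endothelial cells is under that floor, and no difference was detectable at this depth. The call of Nfkb1 was lost when any 1 control library was left out, and that of Bcl3 without control library 2 or 3.

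In smooth muscle-like cells 7 of the 9 genes were lower than in endothelial cells, beside 28.2% of all genes. DESeq2 called 5 of them, beside 36.8%. Besides Nfkbia these were Tnfaip3 (-3.79 ± 0.65, log2 and SE), Bcl3 (-3.58 ± 0.68), Rel (-2.45 ± 0.47), Nfkb1 (-1.56 ± 0.20), Nfkb2 (-0.72 ± 0.32) and Rela (-0.52 ± 0.18). The last 2 lost their calls without control library 1, and Nfkb2 also without control library 2. Relb did not pass, at -0.28 ± 0.26, with 13.7, 18.8 and 22.5 CPM in smooth muscle-like cells and 23.9, 25.5 and 27.3 CPM in endothelial cells. Adhesion genes among the targets were lower as well, with Icam1 at -6.995 ± 0.49 and Vcam1 at -5.93 ± 0.31.

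A further pair of clusters was left unnamed and is called by its leading genes, Lyz2 and Col3a1, and they were included after their genes had been seen. The Lyz2-led cells of controls had higher Rel (2.85 ± 0.37), Nfkbie (3.81 ± 0.71) and Tnfaip3 (2.03 ± 0.46) than endothelial cells (log2 differences, SE), beside 9.54% of all genes, and lower Nfkbia (-1.07 ± 0.23), beside 14%. DESeq2 called the same 4 genes, beside 16.8%. The call of Tnfaip3 was lost without control library 2, which held 180.2 CPM against 25.5 and 23.5 CPM in control libraries 1 and 3, and that of Nfkbia without control library 3. These Lyz2-led cells held Cldn5 at 396 to 1336 CPM, so endothelial RNA was present there as well. In Col3a1-led cells only Nfkbia passed, as lower (-2.26 ± 0.26), beside 14% of all genes, and likewise by DESeq2, beside 18.9%. The median over all genes was -0.43 in Lyz2-led and -0.17 in Col3a1-led cells.

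**Figure D4:**
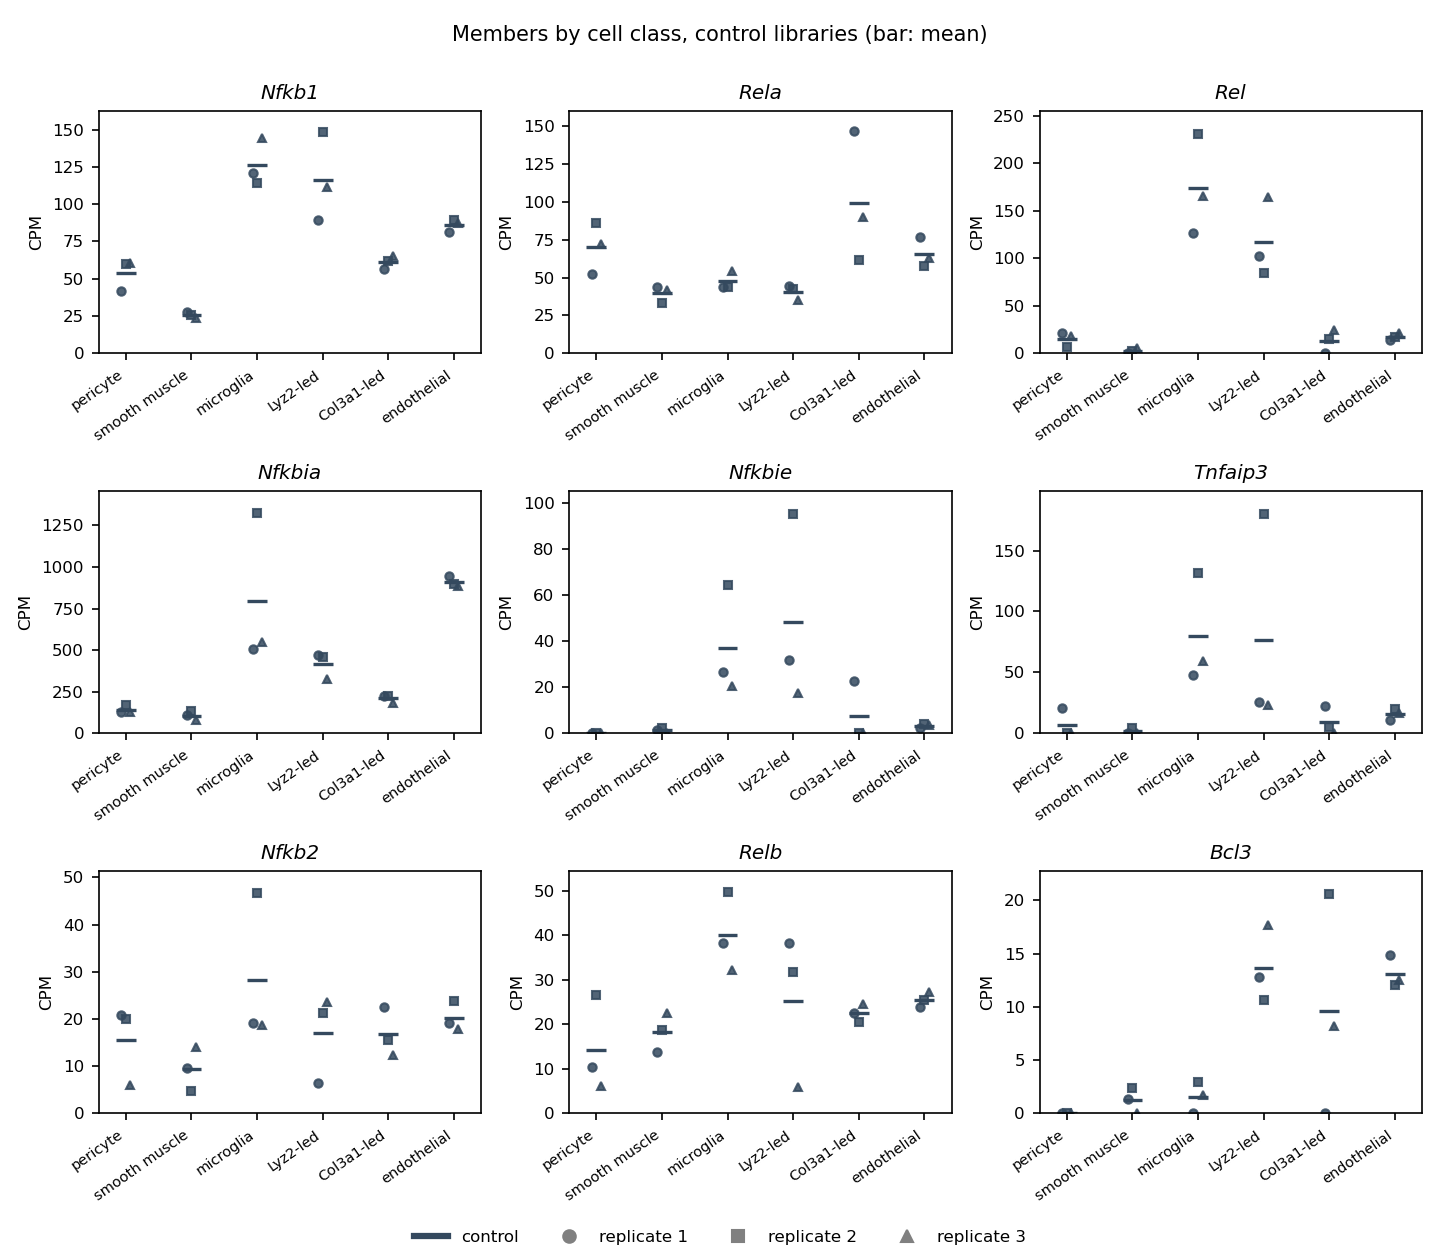
Level of each gene by cell class in the 3 control libraries (CPM with TMM factors computed within each class; points are libraries, bars are means; endothelial cells are on the right). Among the classes shown, Rel, Nfkbie and Tnfaip3 are highest in microglia-like and Lyz2-led cells, and Nfkbia is low in pericyte-like and smooth muscle-like cells.

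Outside the endothelium, no genotype difference passed for any of the 9 genes, by edgeR with or without the replicate block or by DESeq2. In microglia-like cells (37 to 170 cells per iECKO library and 109 to 149 per control library), 7 of the 9 had enough counts to be tested. None of these had an unadjusted p under 0.05 by edgeR, as 273 of all 6391 genes tested had. Of all genes tested, 0.0469% passed without pairing, 0.272% with the block and 0.0195% by DESeq2. Relb had 29.3, 62.3 and 36.7 CPM in microglia-like cells of iECKO libraries and 38.3, 49.7 and 32.3 CPM in those of controls. Rel had 108, 156 and 136 CPM there in iECKO libraries and 126, 231 and 165 CPM in controls. Both overlapped between the groups. The ligand gene Tnf passed with the block in microglia-like cells (log2 difference 1.04 ± 0.22, SE; adjusted p = 0.021 by edgeR), but not without pairing, as did the chemokine gene Cxcl10 (3.29 ± 0.37, adjusted p = 3.3e-07).

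Counts were too few for most of these genes in the smaller classes. In pericyte-like cells 2 of the 9 genes could be tested, Nfkbia (0.21 ± 0.28, log2 and SE) and Rela (-0.01 ± 0.40), and 0.0673% of all genes passed (0.229% with the block, 0.0115% by DESeq2). In smooth muscle-like cells 4 could be tested, with 0.0144% of all genes called (0.161% with the block, 0.00916% by DESeq2), and Relb differed by 0.25 ± 0.35. In Lyz2-led cells 4 could be tested and in Col3a1-led cells 2, with 0% of all genes called in each. By edgeR 1 of these (Nfkbia in Lyz2-led cells, at 0.88 ± 0.36) had an unadjusted p under 0.05. Over all genes tested, 69 of 2546 in Lyz2-led and 194 of 2594 in Col3a1-led cells had one. With the block 0.0399% of all genes passed in Lyz2-led and 0.287% in Col3a1-led cells, and by DESeq2 0.0135% and 0%. iECKO library 2 had 4 Lyz2-led cells and was left out of that fit. In the 2 iECKO libraries left there, Rela, Nfkbia and Relb lay above every control library. So did Nfkb1 in Col3a1-led cells and Bcl3 in pericyte-like cells, the latter from 6 UMIs in iECKO and 0 in control libraries. The share of all genes ordered in this way in these classes was not examined. Nfkb2 had too few counts to be tested by edgeR without pairing in any of these 5 classes. With the block it could be tested in microglia-like cells and did not pass, at -0.41 ± 0.46 (adjusted p = 0.93).

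Within the iECKO libraries, endothelial cells without any Cldn5 UMI could be set against cells with at least 2, among cells with at least 2000 UMIs. There were 726, 228 and 428 such Cldn5-undetected cells in iECKO libraries 1 to 3, against 3073, 1302 and 2312 Cldn5-detected cells. Both kinds came from the same libraries, so the library served as a block. Tnfaip3 had 77.6, 50.0 and 34.2 CPM in undetected cells, against 56.2, 36.6 and 25.2 CPM in detected cells. It was higher in undetected cells of every library, by a log2 difference of 0.45 ± 0.10 (SE; edgeR, adjusted p = 0.00048). Nfkb2 had 68.1, 46.2 and 43.8 CPM in undetected cells, against 50.2, 45.5 and 33.3 CPM in detected cells, which is nearly level in library 2 (0.34 ± 0.10, adjusted p = 0.012). These 2 of 9 genes stood beside 6.54% of all genes that were higher. Relb did not pass, with 55.8, 34.9 and 57.6 CPM in undetected cells and 54.1, 41.9 and 48.1 CPM in detected cells (0.07 ± 0.10, adjusted p = 0.76).

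Both calls depend on the libraries and on depth. Without iECKO library 1 neither passed (Tnfaip3 0.45, adjusted p = 0.0692; Nfkb2 0.26, adjusted p = 0.428), and without iECKO library 3 Nfkb2 did not. Nor did either pass among cells with at least 4000 UMIs or by DESeq2, which called 5.3% of all genes. Undetected cells had lower median depth, at 3521 to 4803 UMIs, than detected cells, at 5353 to 6349 UMIs. They also differed in kind: cells of the Plvap-led subcluster made up 11.2 to 13.2% of undetected and 0.13 to 0.228% of detected cells. Apln-led cells were 55.1, 14.5 and 3.74% of undetected cells in libraries 1 to 3, against 60.4, 23.6 and 5.84% of detected cells. The part of these differences in the calls was not tested.

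Within single zones the split gave less. In capillary cells, Nfkbia had 990, 667 and 1036 CPM in undetected cells, against 735, 590 and 924 CPM in detected cells. It was higher in undetected cells of all 3 libraries (0.27 ± 0.07, log2 and SE; edgeR, adjusted p = 0.015), the 1 call among the 8 genes tested, beside 0.863% of all genes that were higher. The call was lost without iECKO library 1 or 2, and under most other settings. In arterial cells 0 of 8 passed by edgeR (0.389% of all genes). Tnfaip3 at 0.70 ± 0.26 (adjusted p = 0.54) and Relb at 0.42 ± 0.21 (adjusted p = 0.95) were the 2 genes with an unadjusted p under 0.05. Over all genes tested in arterial cells, 484 of 9246 had one. DESeq2 called 0 in both zones, among 3 of the 9 genes it tested in arterial cells (0.511% of all genes) and 1 in capillary cells (2.66%). In control libraries the same split had another makeup, since 86.7 to 93.7% of the 63 to 163 undetected cells were Plvap-led. There Rel was higher (1.34 ± 0.21) and Nfkbia lower (-0.50 ± 0.12) in undetected cells, 1 gene each beside 13.9% and 13.3% of all genes (the same 2 by DESeq2, beside 19.1%), and Tnfaip3 and Nfkb2 did not pass.

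**Figure D5:**
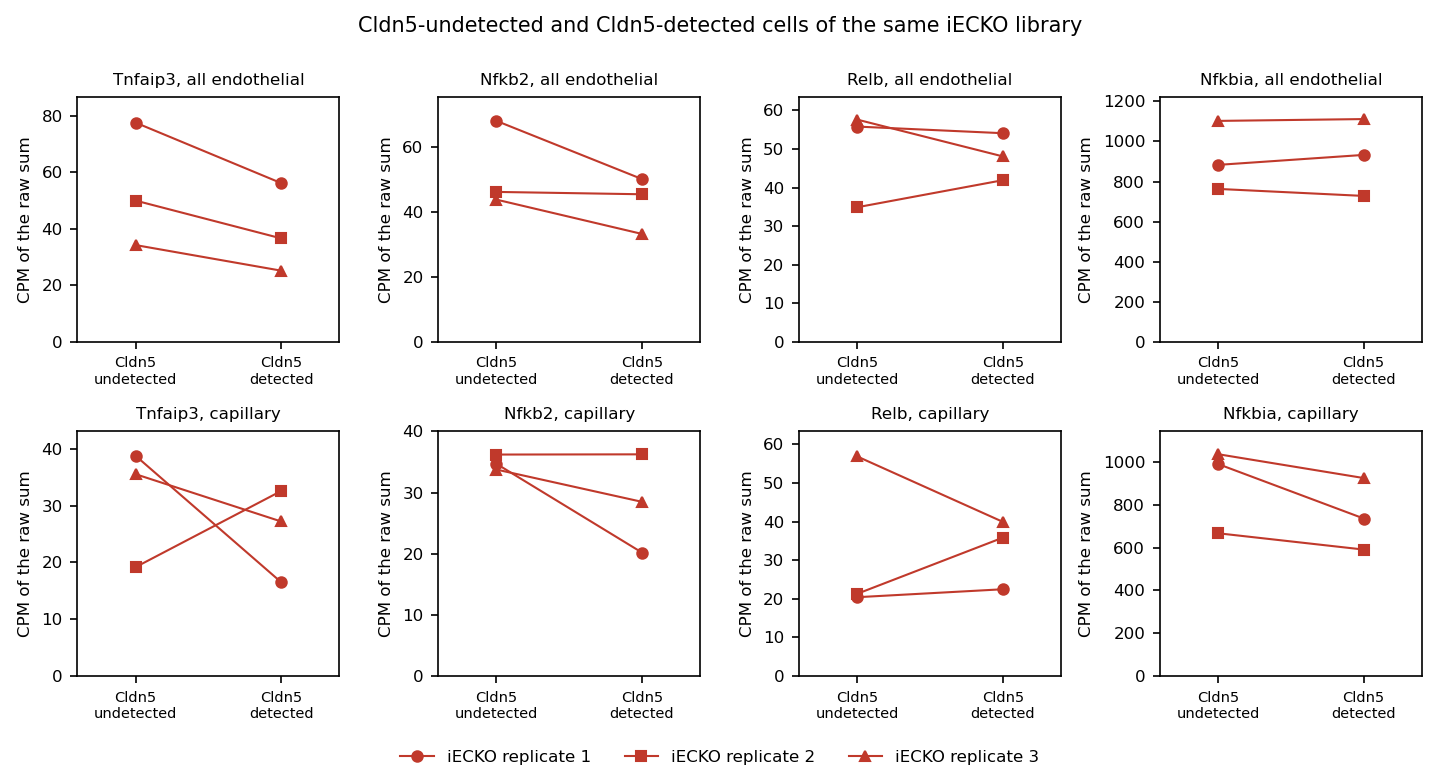
Level of Tnfaip3, Nfkb2, Relb and Nfkbia in Cldn5-undetected and Cldn5-detected endothelial cells of each iECKO library (CPM of raw sums; a line joins the 2 kinds of cell of 1 library). Tnfaip3 is higher in undetected cells of all 3 libraries, and Relb is not.

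Genes around the pathway were compared in the same way within the iECKO libraries, where 6.54% of all genes were higher and 6.36% lower in undetected cells. Of 7 receptor genes of the canonical arm tested, Il1r1 was lower in Cldn5-undetected than in detected cells (-1.20 ± 0.11, log2 and SE), and no other passed. Tnfrsf11a was lower as well (-0.62 ± 0.18), the 1 call among 4 receptors of the non-canonical arm. Of 18 adaptors and kinases, Birc3, the gene of the ubiquitin ligase cIAP2, was higher (0.37 ± 0.12) and Tab2 lower (-0.29 ± 0.08). Of 9 other inhibitors only Nfkbiz passed, as lower (-0.59 ± 0.11). Of 17 targets, 2 were higher and 4 lower. Cx3cl1, the gene of fractalkine, was higher by 0.97 ± 0.06, while Selp, the gene of P-selectin, was lower at -2.68 ± 0.52 and Lcn2 at -1.74 ± 0.10. Venous cells were 2.62 to 4.82% of undetected cells and 6.23 to 11.6% of detected cells, and their part in these lower values was not tested.

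Between iECKO and control libraries, the target genes in the same endothelial cells are likewise a description. Icam1, the gene of a leukocyte adhesion molecule, had 52.5, 55.6 and 39.8 CPM in capillary cells of iECKO libraries, against 19.5, 23.5 and 14.98 CPM in those of controls. It was the 1 of the 12 target genes tested in capillary cells that passed without pairing (1.34 ± 0.19, log2 and SE), beside 0.0645% of all genes. With the block 5 of the 12 passed there, all higher, beside 2.26% of all genes, with Lcn2 at 2.39 ± 0.31, Cxcl1 at 1.80 ± 0.28 and Cx3cl1 at 0.76 ± 0.09. In all endothelial cells 2 of 19 passed with the block, beside 1.45% of all genes: Sele (2.95 ± 0.30), the gene of E-selectin, and Cx3cl1 (1.047 ± 0.15). Sele was carried by few counts, with 21.9, 23.8 and 6.29 CPM in venous cells of iECKO libraries and 0.412, 3.38 and 1.52 CPM in those of controls.

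How many cells carried these transcripts was read after each cell with at least 2000 UMIs was thinned to 2000, and shallower cells were left out. The median depths given below are over all cells of a class, including those left out. A UMI of Nfkb2 was found in 8.24 ± 1.77% of endothelial cells in iECKO libraries and in 3.67 ± 0.588% of those in control libraries (mean and SD, n = 3 each). For Relb the shares were 8.98 ± 1.51% and 4.44 ± 0.853%, and for Tnfaip3 7.17 ± 2.91% and 2.83 ± 0.833%, for iECKO and control libraries. The ranges did not overlap for any of the 3 genes. Their CPM in the same cells had already set the groups apart, so the shares of cells are a further description. How many of all genes separate the groups by this measure was not examined. Nfkbia was found in 68.5 to 82.3% of endothelial cells in iECKO libraries and 69.6 to 79.7% in control libraries, which overlap. Pericyte-like cells gave 3.15 ± 1.12% for Nfkb2, 7.23 ± 0.519% for Relb and 0.813 ± 1.41% for Tnfaip3 in iECKO libraries, at median depths of 2067 to 3014 UMIs. In control libraries, at 2063 to 2584 UMIs, they gave 0.775 ± 1.34%, 4.79 ± 2.17% and 1.59 ± 2.75% for the same genes. The Relb share of control endothelial cells (median depths 3664 to 4852 UMIs) was not above that of pericyte-like cells, so it does not show more cells with the transcript than in that class. In Apln-led cells of iECKO libraries the shares were 12.9 ± 2.11% for Nfkb2, 14.3 ± 0.932% for Relb and 13.9 ± 0.853% for Tnfaip3. Unthinned, the endothelial shares of Nfkb2 were 22.1% in iECKO and 10.1% in control libraries.

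The patterns of 3 of the genes were compared with those of 9041 others over 49 sums of a zone or class in a library. These points share libraries, so the correlations are a description. Nfkbia was most like B2m (Pearson r 0.91), Fli1, Tmem88, Ly6e and Selenop (each 0.90). Nfkb2 and Relb had no partner as close: Inpp5k (0.72), Ppip5k2 (0.69), Ctso, Lrrc57 and Rpe (each 0.67) were most like Nfkb2, and Usp39 (0.69), Cnppd1 (0.62), Exoc4 (0.60), Lmnb1 and Exosc1 (each 0.59) most like Relb. The 2 non-canonical genes shared none of these partners. Nfkb2 and Relb rested on few UMIs in small classes, with 6 each in pericyte-like cells of the 3 controls together, against 59 for Nfkbia. The part of such low counts in these correlations was not tested.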

How the data were processed

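The counts are the authors' deposited UMI counts per gene and barcode (Cell Ranger 6.1.1, per the file headers; build mm10 and Seurat, per the submitters' processing notes). Cells under 1000 UMIs or 500 genes, or over 15% mitochondrial counts, were left out. The highest doublet scores, 0.8% per 1000 barcodes, were removed. So were cells with a UMI for at least 50% of the markers of another, unrelated class (0.413 to 2.3% of endothelial and 25.7 to 67.6% of pericyte-like cells per library). Clustering (scanpy 1.11.5, Leiden resolution 1.0, and 0.6 within endothelial cells) left out the 9 genes and Cldn5, and markers named the clusters. Counts were summed per library and class where at least 20 cells were present. The sums were tested by edgeR 4.0.16 (quasi-likelihood, TMM, Benjamini-Hochberg over all genes tested); zone and class levels carry TMM factors of their own set. DESeq2 1.42.0 was the other tool, and the scripts were tested on simulated data. The members and gene lists were chosen with earlier results of these data known. Named list genes were those past the threshold with the largest differences, up to 4 per list, and for likeness the 5 genes with the highest r and a mean of at least 10 CPM. The labels number the libraries but do not state a pairing. Deviations from the group means over 13256 genes correlated at 0.428 to 0.522 between same-numbered libraries and at -0.386 to -0.0947 between the others. Deviations within a group sum to 0 for each gene, so the negative values follow in part from the positive ones. Libraries were fitted both without and with the number as a block.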

Additional observations from a re-analysis of the deposited data

How the results depend on the processing

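Of 225 counts of called members and shares of cells recomputed under alternatives, 183 stayed within 1.5 times their main value. Of 2122 recomputed differences of single genes, 1810 stayed on the same side of the threshold, while 238 lost their call, 73 gained one and 1 changed sign. A gene called in neither fit counted as unchanged whatever its sign, and a missing adjusted p counted as no call. For genotype in all endothelial cells, where 0 of the 9 genes passed without pairing, 2 passed without a filter on low counts, 3 by DESeq2 and 2 with the replicate block, and 0 to 3 when 1 library was left out. Added after seeing the data, the block gave 1 without the Apln-led cells and 2 with the Prss34-led cells. In arterial cells 2 passed without the filter and 2 with the block, in place of 0. In capillary cells 2 passed without the filter, 3 with the block, 3 with the Apln-led cells and 6 with both. The block changed no other count of called members.

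Of the 3 genes called between arterial and capillary cells, DESeq2 called 1 and leaving out a library left 1 to 2. Against endothelial cells, the 3 calls of pericyte-like cells became 1 by DESeq2, 1 with stricter cell filters, 6 over all 6 libraries and 1 to 3 without a library. The 7 of microglia-like cells became 4 by DESeq2 and 4 to 7 without a library, and the 1 of Col3a1-led cells became 5 over all 6 libraries and 1 to 2 without a library. Among Cldn5-undetected cells the 2 calls became 0 by DESeq2, 1 with stricter filters, 0 at a minimum of 4000 UMIs and 0 to 3 without a library. The 1 call in capillary cells became 0 without the filter, by DESeq2, with stricter cells, with 0 or 1 against at least 5 Cldn5 UMIs and at 4000 UMIs, and 0 to 1 without a library. Tnfrsf12a in smooth muscle-like against endothelial cells was 0.0897 without control replicate 1 and -1.01 without control replicate 3, in place of -0.59. The shares of endothelial cells with a UMI in iECKO libraries were 4.03% at 1000 UMIs and 22.1% unthinned for Nfkb2, 4.38% and 23.9% for Relb, and 3.98% and 17.3% for Tnfaip3. The cause of these changes was not tested.

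Stricter cell filters were not run where they left too few cells: for genotype in pericyte-like, smooth muscle-like, Lyz2-led and Col3a1-led cells, and for smooth muscle-like and Col3a1-led cells against endothelial cells. Venous cells were split by Cldn5 only with the wider gate, where 0 genes passed. Depth limits the small classes, with 36 to 82 pericyte-like cells per library.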
